A study of Mus musculus with 6 samples.

Results

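The chemokine receptor genes followed in regulatory T cells (Tregs) with and without the zinc finger protein Zfp335 were Ccr2, Ccr4, Ccr6, Ccr8, Ccr9, Cxcr3, Cxcr4, Cxcr5 and Cxcr6. They were the rows of the count table whose gene symbol was on this list of 9 names, out of 13709 gene rows. Ccr7 was left off the list and is described with the other receptors. RNA-Seq counts came from CD4+YFP+CD25+ Tregs sorted from C57BL/6 mice aged 2 weeks, with 3 samples labelled wild type (WT) and 3 labelled Zfp335 deficient (KO). Per the study's methods, WT mice were Foxp3Cre and KO mice were Foxp3Cre Zfp335 fl/fl, so the cells of both genotypes made YFP and Cre recombinase from the Foxp3 locus, and Cre deletes the floxed Zfp335 gene in cells that express Foxp3. The labels named both lymph nodes and spleen as the tissue. The number of mice behind each sample is not given in the sources used here, so p-values measure only the spread between these samples. The deletion took place in the living mouse, so a change within the Tregs and one set by the state of the mouse cannot be told apart.

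Chemokine receptors are membrane receptors with a bundle of transmembrane helices that couple to inhibitory G proteins. A cell that carries one moves up the gradient of the matching chemokine, so the set of receptors on a Treg determines which tissues and which zones of a lymphoid organ it enters. CXCR3, CXCR6 and CCR2 are known as receptors of T cells that enter inflamed tissue. CCR4, CCR6 and CCR8 are known as receptors of effector Tregs at barrier sites, with CCR4 and CCR8 prominent in skin. CXCR5 guides cells into B cell follicles, CCR9 into the small intestine, and CXCR4 to sites rich in CXCL12 such as bone marrow.

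Total counts were 32032631 to 35514106 in WT and 35757592 to 40728419 in KO, and a filter on low counts left 13594 genes for testing. Levels are given as CPM, the counts of a gene relative to the library total scaled by edgeR's TMM factor, as mean ± SD over 3 samples. Zfp335 was lower in every KO sample (37.0, 37.9 and 40.2 CPM) than in any WT sample (101, 94.3 and 103 CPM), and its log2 fold change was -1.37 (adjusted p = 2.14e-05, edgeR). The gene overlaps Pcif1. WT replicate 3 stood apart. The first principal component, with 63.3% of the variance, separated the genotypes, and the second, with 18.4%, placed WT replicate 3 at -58.9 and WT replicates 1 and 2 at 22.1 and 34.4. The 8 Treg and CD4 T cell markers summed to 4730 to 5721 CPM in WT and 3799 to 3918 CPM in KO, with 3 called lower (Foxp3, Cd3d and Ikzf2) by edgeR. Of these, Foxp3 stood at 642 to 1190 CPM in WT and 460 to 472 CPM in KO (log2 fold change -0.88, adjusted p = 0.0122, edgeR), and without WT replicate 3 its value was -0.57, under the fold cutoff. Cd3d and Ikzf2 had log2 fold changes of -0.59 and -1.11, and Cd4, not called, had 0.26. Markers of several other cell types moved with genotype. Among all genes tested, 11.9% were called higher and 12.5% lower. The summed level of 8 monocyte and macrophage markers was 23.04 to 35.5 CPM in WT and 67.6 to 74.1 CPM in KO, with 7 of 8 called higher (6 without WT replicate 3, Lyz2 being lost), and that of 5 natural killer and innate lymphoid markers was 5.73 to 6.40 CPM in WT and 120 to 126 CPM in KO, with 4 of 5 called higher, most of it from Gzma at 103 to 109 CPM in KO. Of 6 neutrophil markers 3 were tested and called higher, with S100a8 and S100a9 at 0 in every WT sample and a summed level of 4.51 to 7.25 CPM in KO. These 3 passed the low-count filter only through their KO samples, so a call in the other direction was not possible. In the study's single-cell data of younger mice, S100a8 and S100a9 were high in a Treg cluster named dysfunctional, which accumulated in KO. Of 6 dendritic cell markers 5 were tested and 2 were called higher, from a summed 7.49 to 18.1 CPM in WT to 30.7 to 34.4 CPM in KO. The 6 B cell markers analysed summed to 449 to 722 CPM in WT and 192 to 207 CPM in KO, nearly all of it Ighm, with Ighm and Cd79b called lower and Cd22 higher (log2 fold changes -1.56, -1.26 and 1.01), while Cd79a, Ms4a1 and Pax5 reached at most 3.97 CPM in any sample. The CD8 markers summed to 9.32 to 13.2 CPM in WT and 12.0 to 12.7 CPM in KO, most of it from Cd8b1, which was not called. Cd8a, at 1.005 to 2.31 CPM in WT and 2.86 to 4.17 CPM in KO, was called higher (log2 fold change 0.997, adjusted p = 0.0665, edgeR). The erythroid markers summed to 16.3 to 69.2 CPM in WT and 29.3 to 35.5 CPM in KO. The basophil, mast cell and eosinophil markers summed to 0 to 0.330 CPM in WT and 1.10 to 1.65 CPM in KO. The stromal and endothelial markers summed to 213 to 216 CPM in WT and 143 to 151 CPM in KO. Most of that sum was Pecam1, at 189.0 to 202.2 CPM in WT and 133.2 to 142.5 CPM in KO, which was not called. Of the others, Pdgfrb was called higher and Col1a2 and Epcam lower. Pdgfrb had 0, 0 and 26 counts in WT and was not called by DESeq2 (adjusted p = 0.237). It passed the low-count filter only through its KO samples. The same holds for Fcgr1, Adgre1, Itgax, Klre1 and Siglecf among the other markers called higher. In bulk samples fewer cells of a type and less RNA per cell cannot be told apart, and the part of these markers in the results on the receptors was not tested.

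Of the 9 receptors, 6 changed between the genotypes. Cxcr6, Ccr2 and Cxcr3 rose in KO Tregs, Ccr6, Ccr4 and Ccr8 fell, and Ccr9, Cxcr5 and Cxcr4 were not called. Called genes are those that edgeR's quasi-likelihood test gave a fold change of more than 1.5 with p below 0.05 and adjusted p below 0.1. The 6 calls among 9 receptors stood against 24.4% of all genes tested, the 3 higher calls against 11.9% and the 3 lower calls against 12.5%. KO and WT values did not overlap for 6 receptors, against 53.8% of all genes, with KO higher for 3 against 26.2% and KO lower for 3 against 27.6%. All 9 receptors passed the low-count filter. Their median log2 fold change was -0.22, and that of all genes was -0.04. Without WT replicate 3, 4 receptors were called higher and 3 lower, the added call being Cxcr4.

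**Figure D1:**
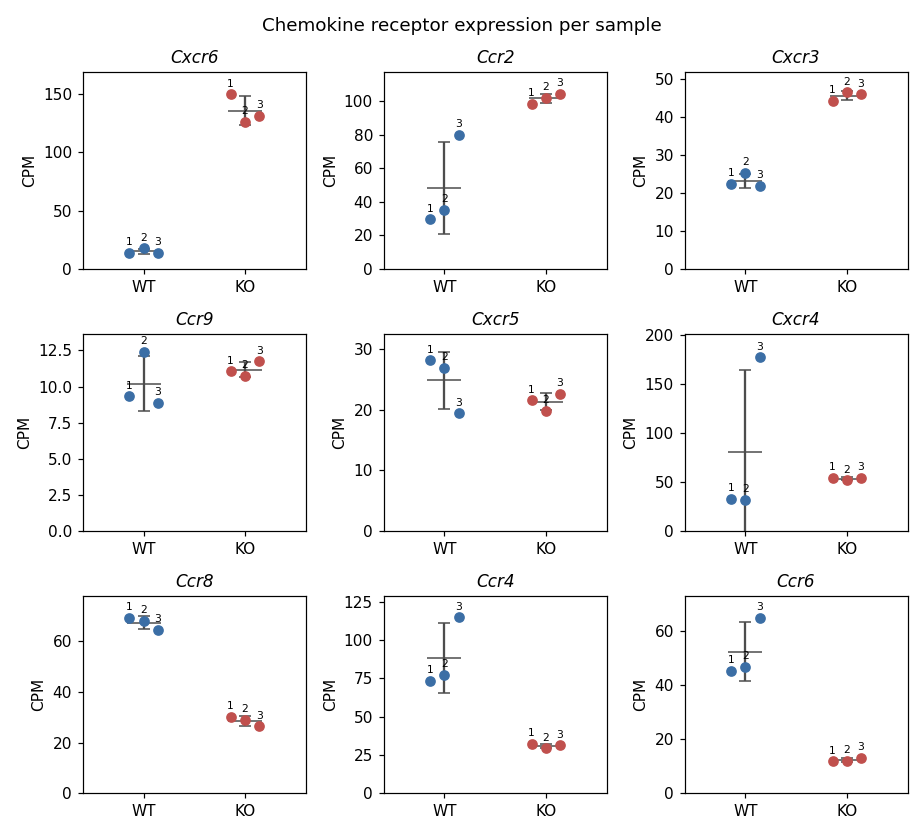
CPM of each of the 9 chemokine receptor genes (y axis) in the 3 WT and 3 KO samples, with points numbered by replicate and bars giving mean ± SD; the lower end of the Cxcr4 WT bar is cut at 0. The KO points of Cxcr6, Cxcr3 and Ccr2 lie above all WT points, those of Ccr6, Ccr8 and Ccr4 lie below them, and WT replicate 3 stands at 177 CPM for Cxcr4.

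Cxcr6, the receptor of the membrane-bound chemokine CXCL16, had the largest change of the 9. In replicate order, its level was 13.9, 17.8 and 13.8 CPM in WT and 149, 126 and 131 CPM in KO. Every KO sample stood far above every WT sample. The mean rose from 15.2 ± 2.29 CPM to 135 ± 12.4 CPM, a log2 fold change of 3.16 (95% interval 2.86 to 3.45, adjusted p = 7.45e-06, edgeR), or 8.93-fold. The gene lies at chr9:123806475-123811760 on the plus strand of GRCm38, inside the gene Fyco1 on the minus strand, and the annotated exons of the pair share no base. As the use of strand is not given, Cxcr6 counts are uncertain where reads of both genes could not be told apart. Fyco1, which encodes an adaptor for autophagosome transport, stood at 89.5 to 96.3 CPM in WT and 61.6 to 70.2 CPM in KO (log2 fold change -0.48, adjusted p = 0.00211, edgeR), under the fold cutoff.

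Cxcr3, the receptor of the interferon-induced chemokines CXCL9 and CXCL10, stood at 22.5, 25.3 and 21.96 CPM in WT and at 44.3, 46.6 and 46.1 CPM in KO. The groups did not overlap, and the samples of each genotype lay close together. The mean rose from 23.3 ± 1.82 CPM to 45.7 ± 1.19 CPM, a log2 fold change of 0.97 (95% interval 0.77 to 1.18, adjusted p = 0.000193, edgeR). The study listed Cxcr3 among the genes enriched in its effector Treg cluster. In its single-cell RNA data of younger mice, that cluster was nearly absent from KO. By flow cytometry the study found a lower frequency of splenic Tregs carrying ICOS and CXCR3 in younger KO mice. It also found fewer such cells in younger mice heterozygous for Foxp3Cre, with liver and lung among the tissues. The flow results are protein measures of a subset, and all of these results are from another age. The values here are RNA of all sorted cells. Cxcr3 lies at chrX:101731535-101734269 on the minus strand.

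Ccr2, the receptor of monocyte-attracting chemokines such as CCL2 and a receptor of monocytes as well as of T cells, stood at 29.5, 35.4 and 80.0 CPM in WT and at 98.4, 102 and 104 CPM in KO. WT replicate 3 stood well above the other 2 WT samples and below all KO samples. The log2 fold change was 1.07 (95% interval 0.30 to 1.85, adjusted p = 0.0369, edgeR), from 48.3 ± 27.6 CPM to 102 ± 2.96 CPM. Leaving out WT replicate 3 gave 1.64 (adjusted p = 6.27e-10), and leaving out WT replicate 2 gave 0.89, which was not called (adjusted p = 0.113). Ccr2 lies at chr9:124101950-124113557 on the plus strand, and 2.27% of the windows of 50 bases in its transcripts also occur in transcripts of other genes, so reads there could have been assigned to another gene. Among monocyte markers, Csf1r stood at 0.391 to 2.68 CPM in WT and 6.27 to 7.29 CPM in KO, and Ly6c2 at 4.39 to 5.75 CPM in WT and 14.8 to 15.9 CPM in KO. The part of such cells in the level of Ccr2 was not tested.

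**Figure D2:**
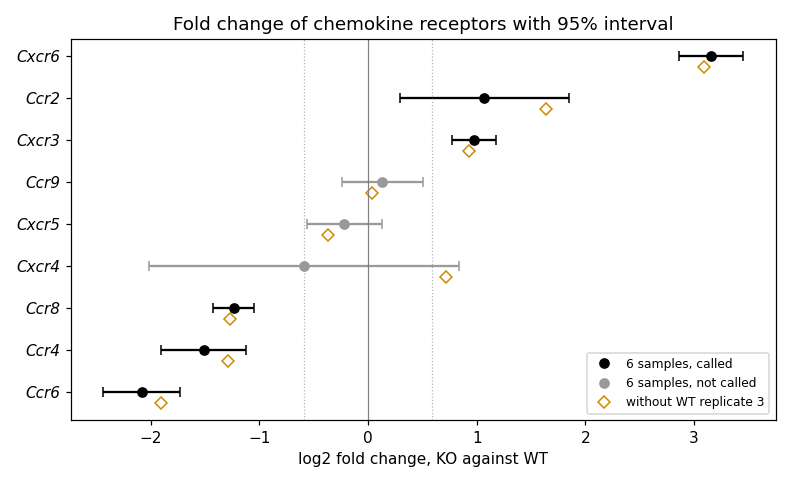
Log2 fold change of each of the 9 receptor genes in KO against WT Tregs (x axis), with all 6 samples as dots with 95% intervals, black where called, and without WT replicate 3 as open diamonds; dotted lines mark 1.5-fold. Cxcr6 stands at 3.16 and Ccr6 at -2.08, and the value of Cxcr4 goes from -0.59 to 0.72 without WT replicate 3.

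Ccr6, the receptor of CCL20 and a marker of Th17-like cells and of Tregs at mucosal sites, fell the most. It stood at 45.5, 46.9 and 65.0 CPM in WT and at 11.9, 12.1 and 13.1 CPM in KO. The lowest WT sample stood more than 3 times above the highest KO sample. The mean fell from 52.4 ± 10.9 CPM to 12.4 ± 0.665 CPM, or to 23.6% of WT, with a log2 fold change of -2.08 (95% interval -2.43 to -1.73, adjusted p = 7.48e-05, edgeR). Ccr6 lies at chr17:8236043-8257141 on the plus strand.

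Ccr4, the receptor of CCL17 and CCL22 that brings Tregs to skin and to dendritic cells, stood at 73.2, 77.4 and 115 CPM in WT and at 32.2, 29.5 and 31.3 CPM in KO. WT replicate 3 was the highest, and all WT samples lay above all KO samples. The mean fell to 35.03% of WT, with a log2 fold change of -1.51 (95% interval -1.91 to -1.12, adjusted p = 0.000487, edgeR), and without WT replicate 3 the value was -1.29. Ccr4 lies at chr9:114490316-114504916 on the minus strand.

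Ccr8, the receptor of CCL1 and a marker of activated tissue Tregs, stood at 69.2, 68.1 and 64.4 CPM in WT and at 30.2, 28.9 and 26.5 CPM in KO. The spread within each genotype was small, and the groups were far apart. The mean fell from 67.2 ± 2.53 CPM to 28.5 ± 1.90 CPM, or to 42.4% of WT, with a log2 fold change of -1.24 (95% interval -1.43 to -1.05, adjusted p = 4.69e-05, edgeR). Ccr8 lies at chr9:120092114-120094906 on the plus strand.

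Cxcr4, the receptor of CXCL12, was not called, and its WT samples disagreed. They stood at 32.9, 32.1 and 177 CPM, and KO samples at 54.7, 51.8 and 54.7 CPM. KO samples lay above WT replicates 1 and 2 and below WT replicate 3. The log2 fold change was -0.59 (95% interval -2.01 to 0.84, adjusted p = 0.492, edgeR) with all samples and 0.72 (SE 0.07, adjusted p = 1.38e-06) without WT replicate 3, so the direction rested on that sample. WT replicate 3 stood over 1.5-fold above both other WT samples for 2 of the 9 receptors, Cxcr4 and Ccr2, against 8.44% of all genes, and as far below both for 0 of the 9, against 8.86%. Cxcr4 lies at chr1:128588199-128592293 on the minus strand.

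Cxcr5, which follows the follicular chemokine CXCL13, stood at 28.1, 26.9 and 19.4 CPM in WT and at 21.5, 19.8 and 22.6 CPM in KO. WT replicate 3 was the lowest of all 6 samples, and the groups overlapped. The log2 fold change was -0.22 (95% interval -0.57 to 0.13, adjusted p = 0.29, edgeR). Without WT replicate 3 it was -0.37 (adjusted p = 0.0049), under the fold cutoff. Cxcr5 lies at chr9:44511787-44561877 on the minus strand and shares 110 exonic bases with Bcl9l, so its counts are uncertain where reads could not be told apart.

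Ccr9, the receptor of the gut chemokine CCL25, was the least expressed receptor, with 9.32, 12.4 and 8.89 CPM in WT and 11.1, 10.7 and 11.7 CPM in KO. The groups overlapped, and the log2 fold change was 0.13 (95% interval -0.24 to 0.50, adjusted p = 0.562, edgeR). The interval leaves out changes above 1.5-fold. Ccr9 lies at chr9:123678439-123784330 on the plus strand and overlaps several other genes, among them Lztfl1 and Slc6a20a.

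The bases just upstream of the start sites were read for the receptors with the largest rise and the largest fall, as the stretches where factors of the transcription machinery bind. The sequences are from RefSeq on GRCm38.p6, 250 bases long, 5′ to 3′ on the strand of the gene, and capitals mark the matched letters. The Cxcr6 window is chr9:123806227-123806476 on the plus strand, and its capitals are the RUNX letters TGTGGT read on the other strand, 10 bases before the start site.
Cxcr6: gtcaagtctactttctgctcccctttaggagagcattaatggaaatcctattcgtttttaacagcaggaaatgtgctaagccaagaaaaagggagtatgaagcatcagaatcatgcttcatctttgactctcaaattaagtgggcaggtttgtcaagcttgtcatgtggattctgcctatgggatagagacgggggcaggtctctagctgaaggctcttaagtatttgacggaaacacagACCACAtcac
Ccr6 has 2 start sites, and the window at the first, chr17:8235793-8236042, held no matched letters and is left out. The window at the second is chr17:8242276-8242525 on the plus strand, and its capitals are the GATA letters AGATAA, 70 bases before the start site.
Ccr6: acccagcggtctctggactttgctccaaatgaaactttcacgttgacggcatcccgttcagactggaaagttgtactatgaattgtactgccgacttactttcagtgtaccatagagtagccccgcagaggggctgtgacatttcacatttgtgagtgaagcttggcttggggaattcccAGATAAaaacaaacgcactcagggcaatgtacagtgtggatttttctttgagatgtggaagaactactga

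RefSeq start sites gave 9 windows for 8 of the 9 receptors, 2 of them for Ccr6, and 6 motifs were searched on both strands. The RUNX letters TGTGGT occurred in windows of Cxcr3 and Cxcr6, and in 14% of all 32851 windows of the same length. The GATA letters AGATAA occurred in the windows of Ccr2 and Ccr8, in the second of the 2 Ccr6 windows, and in 9.99% of all windows. The AP-1 letters TGANTCA occurred in the window of Ccr4 and in 6.75% of all. The T-box letters GGTGTGA, the forkhead letters TGTTTAC and the ETS letters CCGGAAG occurred in none of the 9 windows and in 3.33%, 3.17% and 6.91% of all. A match describes the letters of the window and shows no binding.

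Levels of different receptors were compared per transcript length, as CPM per kilobase of the longest protein-coding transcript. In WT the order by mean was Ccr8 at 57.2 ± 2.15, Cxcr4 at 44.7 ± 46.3, Ccr4 at 31.5 ± 8.15, Ccr6 at 29.9 ± 6.18, Cxcr3 at 13.4 ± 1.05, Cxcr5 at 8.71 ± 1.66, Ccr2 at 8.43 ± 4.81, Cxcr6 at 7.95 ± 1.20 and Ccr9 at 1.97 ± 0.371 CPM per kilobase. The ranges of neighbours overlapped from Ccr8 down to Ccr6 and from Cxcr5 down to Cxcr6. In KO the order was Cxcr6 at 71.0 ± 6.49, Cxcr4 at 29.8 ± 0.917, Cxcr3 at 26.4 ± 0.689, Ccr8 at 24.3 ± 1.62, Ccr2 at 17.7 ± 0.517, Ccr4 at 11.1 ± 0.506, Cxcr5 at 7.49 ± 0.499, Ccr6 at 7.05 ± 0.379 and Ccr9 at 2.15 ± 0.0997 CPM per kilobase. There the ranges overlapped between Cxcr3 and Ccr8 and between Cxcr5 and Ccr6. Cxcr6 was the highest of the 9 in each KO sample. The WT places of Cxcr4 and Ccr2 rested on WT replicate 3, where Cxcr4 stood at 98.2 and Ccr2 at 13.96, against 17.8 to 18.2 and 5.16 to 6.19 CPM per kilobase in the other 2 WT samples.

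The summed level of the 9 receptors was 166, 172 and 273 CPM per kilobase in WT and 205, 190 and 195 CPM per kilobase in KO, so the groups overlapped while the make-up of the sum differed. Cxcr6 made up 4.395%, 5.43% and 2.64% of the sum in WT and 38.2%, 34.6% and 35.2% in KO. Ccr8 made up 35.4%, 33.7% and 20.1% in WT and 12.5%, 12.9% and 11.5% in KO. The low share of Ccr8 in WT replicate 3 stood beside a Cxcr4 share of 35.9% in that sample, against 10.96% and 10.3% in the other 2. Ccr4 went from 15.6% ± 0.550 to 5.61% ± 0.0960, and Ccr6 from 14.9% ± 1.17 to 3.59% ± 0.268. Cxcr3 went from 6.99% ± 2.06 to 13.4% ± 0.849, and Ccr2 from 3.94% ± 1.05 to 9.01% ± 0.552. These shares carry no test.

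**Figure D3:**
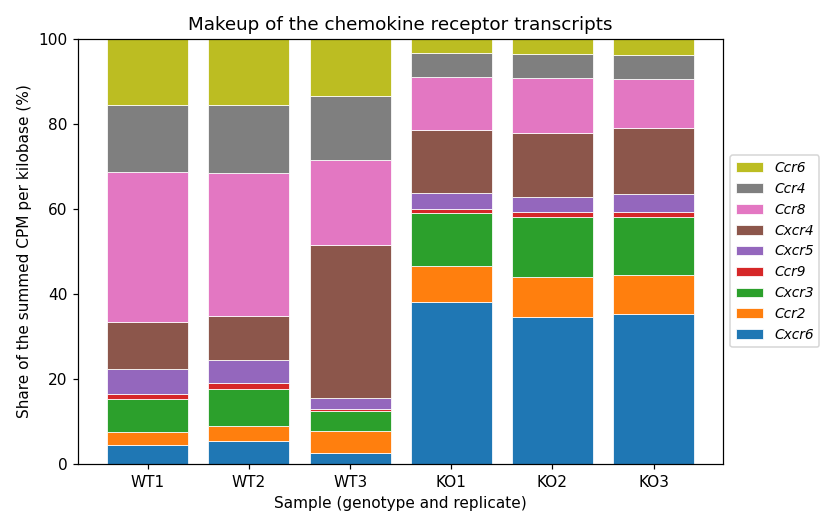
Share (y axis, percent) of each of the 9 receptors in their summed CPM per kilobase in the 3 WT and 3 KO samples. Cxcr6 takes 34.6% to 38.2% of the sum in KO and 2.64% to 5.43% in WT, and Cxcr4 takes 35.9% in WT replicate 3.

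Of the 9 receptors, 6 lie on chromosome 9, and 4 of these 6 were called, against 24.4% of all genes tested. Of these, Ccr9, Cxcr6 and Ccr2 lie in a stretch of 435 kb in which 6 chemokine receptor genes were analysed. Neighbours there moved in different directions. In genome order the log2 fold changes were 0.13 for Ccr9, 3.16 for Cxcr6, -0.90 for Xcr1, 4.05 for Ccr1, -1.70 for Ccr3 and 1.07 for Ccr2. Cxcr6, Ccr1 and Ccr2 were called higher and Ccr3 lower, against 11.9% and 12.5% of all genes tested, and Ccr9 and Xcr1 were not called.

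**Figure D4:**
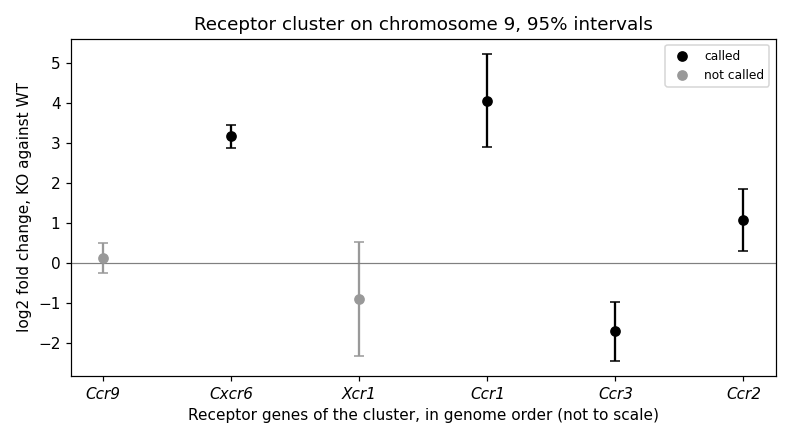
Log2 fold change (y axis) in KO against WT with 95% intervals for 6 receptor genes of the chromosome 9 cluster, in genome order and not to scale, with called genes in black. Ccr1 at 4.05 and Ccr3 at -1.70 are the extremes.

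Counts of called genes in the lists that follow stand beside 24.4% called among all genes tested, 11.9% higher and 12.5% lower. Of 9 other chemokine receptors 7 were tested, and 1 was called higher and 2 lower, with a median log2 fold change of -0.33. Ccr1, a receptor of myeloid cells and activated T cells, stood at 0.163, 0.7003 and 1.05 CPM in WT and at 11.3, 9.76 and 10.4 CPM in KO (log2 fold change 4.05, adjusted p = 0.000728, edgeR). Its WT levels were near 0, and no KO sample came near them. Ccr3, known from eosinophils, fell from 2.88 to 5.53 CPM in WT to 1.22 to 1.45 CPM in KO (log2 fold change -1.70, adjusted p = 0.00413, edgeR), and Ccr10, a skin-homing receptor inside Cntnap1 and therefore uncertain, fell from 2.93 to 3.62 CPM to 0.821 to 1.45 CPM (log2 fold change -1.57, adjusted p = 0.00652, edgeR). Ccr7, which guides cells into lymph nodes, stood at 180, 175 and 224 CPM in WT and 211, 224 and 222 CPM in KO and was not called (log2 fold change 0.18, adjusted p = 0.199, edgeR).

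Of 15 ligands of the 9 receptors, 7 were tested, most of them at low levels. By edgeR 3 were called higher and 0 lower, with a median log2 fold change of 1.54, and 0 were lower at an unadjusted p below 0.05 or by DESeq2. Ccl1 and Cxcl9 passed the low-count filter only through their KO samples, and Ccl20 did not pass it. The direction of these counts therefore follows in part from the filter. Ccl1, a ligand of CCR8, stood at 0.217, 0.335 and 0.0300 CPM in WT and at 2.93, 2.76 and 4.14 CPM in KO. Its log2 fold change was 4.05 (adjusted p = 0.00182, edgeR), while Ccr8 fell. Ccl22, a ligand of CCR4, stood at 1.36, 0.853 and 2.13 CPM in WT and at 3.97, 4.95 and 3.74 CPM in KO (log2 fold change 1.54, adjusted p = 0.0121, edgeR), while Ccr4 fell. Cxcl9, a ligand of CXCR3, stood at 1.09, 0.122 and 0.150 CPM in WT and at 2.49, 3.56 and 3.60 CPM in KO (log2 fold change 2.80, adjusted p = 0.0213, edgeR), and without WT replicate 1 the value was 4.53. For each of these ligands the genotypes did not overlap, which held for 53.8% of all genes tested. Cxcl10, the other CXCR3 ligand tested, which overlaps Art3 and is uncertain, stood at 5.84, 4.51 and 28.5 CPM in WT and at 18.2, 17.6 and 17.3 CPM in KO and was not called (adjusted p = 0.606, edgeR), but was called at 1.76 without WT replicate 3. Cxcl16, the ligand of CXCR6, which overlaps Zmynd15 and is uncertain, stood at 0.353 to 0.670 CPM in WT and 0.523 to 1.14 CPM in KO (log2 fold change 0.81, adjusted p = 0.232, edgeR). Ccl25, the ligand of CCR9, which overlaps Elavl1, was not called (log2 fold change -0.34, adjusted p = 0.189, edgeR). Ccl8 was not called with all samples (log2 fold change 1.72, adjusted p = 0.155, edgeR) and was called at 2.69 without WT replicate 1. Ccl20, the ligand of CCR6, was too low to pass the filter, at 0.516, 0 and 1.35 CPM in WT and 0, 0 and 0.114 CPM in KO. Without the filter 4 ligands were called. The added one was Ccl20, at a mean of 0.623 CPM in WT and 0.0378 CPM in KO.

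Of 20 genes that carry the signal from the receptors to the cytoskeleton, 2 were called higher and 2 lower, with a median log2 fold change of 0.31. Gnai1, an inhibitory G protein subunit, had 0, 0 and 1 counts in WT and 73, 149 and 119 counts in KO, at least 33.1-fold higher against a floor of 3 counts per library. Prex1, an exchange factor for Rac, rose from 289 to 311 CPM in WT to 499 to 516 CPM in KO (log2 fold change 0.75, adjusted p = 0.000151, edgeR). Tiam1, another exchange factor for Rac, fell from 292 to 315 CPM to 158 to 161 CPM (log2 fold change -0.94, adjusted p = 5.34e-05, edgeR), and the phospholipase Plcb2 fell by 0.85 on the log2 scale (adjusted p = 0.00184, edgeR). Gnai2, the most abundant inhibitory subunit of the list, stood at 621 to 684 CPM in WT and 787 to 833 CPM in KO, under the fold cutoff.

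Of 13 tested genes that switch the receptors off, edgeR called 4 lower, against 12.5% of all genes, and 0 higher, against 11.9%, with a median log2 fold change of -0.26, and 0 were higher at an unadjusted p below 0.05 or by DESeq2. Arrb1, a beta-arrestin that uncouples receptors, stood at 125, 110 and 127 CPM in WT and at 48.4, 50.1 and 49.7 CPM in KO (log2 fold change -1.29, adjusted p = 3.23e-05, edgeR). Rgs10 and Rgs16, which speed the turn-off of G proteins, had log2 fold changes of -1.50 (adjusted p = 1.57e-05) and -1.99 (adjusted p = 8.8e-05, edgeR). Rgs2 stood at 39.6, 41.6 and 161 CPM in WT and at 28.2, 26.5 and 26.9 CPM in KO, with a log2 fold change of -1.57 (adjusted p = 0.0443, edgeR). The call for Rgs2 was lost without WT replicate 3 (-0.58) and without any single KO sample (-1.59 to -1.55). Grk5, a kinase that marks active receptors for uncoupling, was not called with all samples (log2 fold change 0.66, adjusted p = 0.169, edgeR) and was called higher without WT replicate 3 (0.76, adjusted p = 0.0557), so the absence of higher calls rested on that sample.

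Of 7 other homing receptors tested, Gpr183, an oxysterol receptor that positions cells in lymphoid organs, and Gpr15, a receptor for entry into the colon, were called higher. Gpr183 had a log2 fold change of 1.15 (adjusted p = 0.00669, edgeR) and lies inside Ubac2, and Gpr15 had 1.13 (adjusted p = 0.0156, edgeR) and overlaps Cpox, so both are uncertain. Without WT replicate 3, 4 of the 7 were called. Of 12 transcription factors of helper lineages, 4 were called higher and 2 lower, with a median log2 fold change of 0.10. Tbx21, the Th1 factor, stood at 6.00, 4.99 and 5.53 CPM in WT and at 70.8, 74.2 and 68.8 CPM in KO (log2 fold change 3.69, adjusted p = 1.31e-06, edgeR). Runx3 rose from 40.4 to 54.8 CPM to 164 to 175 CPM (log2 fold change 1.91, adjusted p = 4.36e-05, edgeR), and Eomes and Gata3, factors of cytotoxic cells and of Th2 cells, had 2.29 and 0.78. Bcl6, the follicular factor, fell from 22.3 to 46.6 CPM to 11.9 to 13.9 CPM (log2 fold change -1.51, adjusted p = 0.00288, edgeR), and Foxo1 had -0.68.

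**Figure D5:**
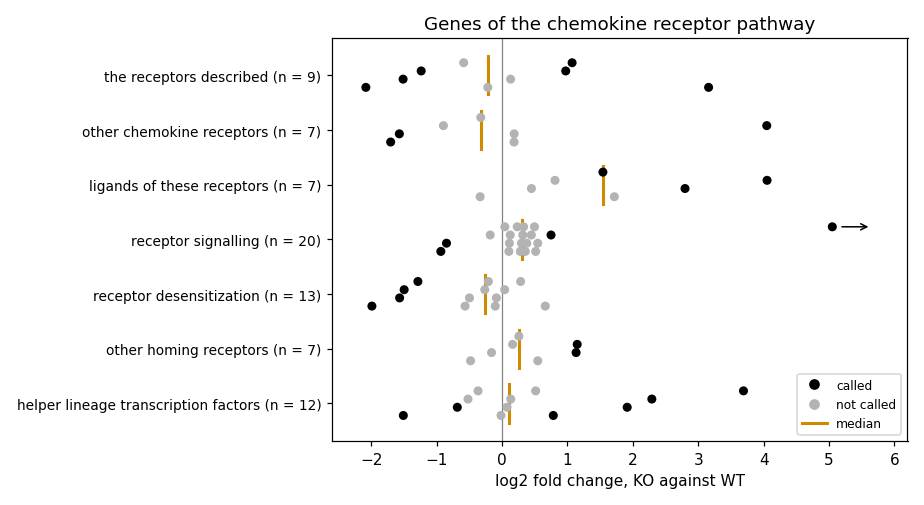
Log2 fold change (x axis) in KO against WT of each tested gene of 7 gene lists, with called genes in black, others in grey and the median of the list as a bar. The arrow marks Gnai1, drawn at its lower bound, and the medians run from -0.33 for the other chemokine receptors to 1.54 for the ligands.

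For each receptor the gene with the most similar profile was the one whose log2 CPM, centred on its mean over the 6 samples, lay closest by Euclidean distance. The distances describe the pairs and carry no test, and the 6 samples fall into the 2 genotypes. Cxcr3 lay closest to Ahcy, the enzyme that removes S-adenosylhomocysteine (distance 0.049), Ccr9 to the respiratory chain gene Ndufb3 (0.062), Ccr8 to the monooxygenase gene Fmo5 (0.092) and Cxcr5 to the lipid synthesis gene Gpam (0.11). Ccr4 lay closest to Ighm, the immunoglobulin heavy chain gene (0.144), which stood at 458, 429 and 698 CPM in WT and 188, 174 and 178 CPM in KO. Ccr2 lay closest to Ifrd1 (0.17), Cxcr6 to the galectin gene Lgals7 (0.306) and Ccr6 to Cc2d2b (0.361). Cxcr4 lay closest to Ifit1, an interferon-induced gene (0.192), which stood at 20.4, 20.98 and 108 CPM in WT and at 31.9, 30.9 and 30.0 CPM in KO, so WT replicate 3 was again the sample that stood out.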

How the data were processed

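The study's methods name SOAPnuke for read filtering, HISAT2 for alignment to mm10 with 1 alignment kept for each read, and StringTie for quantification. The authors deposited whole-number counts per gene without normalization. How these were obtained, the annotation and the use of strand are not given in the sources used here, so overlapping genes are uncertain. No gene summed to under 60 counts.

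Counts were tested with edgeR 4.0.16 in R 4.3.3 (filterByExpr with a minimum count of 10, TMM scaling, quasi-likelihood F-test, two-sided, KO against WT over 6 samples, no covariate), with Benjamini-Hochberg adjustment over 13594 genes. The cutoffs are those of the study. The standard error is the log2 fold change divided by the square root of F. The floor of 3 counts, at most 0.0914 CPM in WT, covers counting error only.

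Alternatives were DESeq2 1.42.0, other scalings, filters and cutoffs, a test against 1.5-fold, a replicate block and leaving out each sample. Lengths and positions came from GENCODE M21. Named genes were the 9 receptors, called members of the gene lists, ligands and genomic neighbours of the receptors, the closest profile of each receptor, and Zfp335. Gnai2, Ccr7, Cx3cr1, Grk5 and the cell markers named were chosen with their values known. The receptors and all lists were chosen with earlier results of these data known. Listed genes without a row were not analysed here, and some members of the lists are left out and not reported here.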

Additional observations from a re-analysis of the deposited data

How the results depend on the processing

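Across 14 other settings, the calls of Cxcr6, Cxcr3, Ccr6, Ccr4 and Ccr8 kept their direction and their side of the cutoffs, with log2 fold changes of 3.08 to 3.29, 0.93 to 1.04, -2.18 to -1.90, -1.63 to -1.29 and -1.28 to -1.18. Ccr2 (0.81 to 1.64 when single samples were left out) was not called without WT replicate 2 (0.89) or in a test against 1.5-fold (1.07, adjusted p = 0.237, edgeR). Cxcr4 ran from -0.97 to 0.72 when single samples were left out and reversed to 0.72 without WT replicate 3. Cx3cr1, at 0.19 with all samples, reversed to -0.059 without WT replicate 1 and to -0.064 without WT replicate 2 and reached 0.85 without WT replicate 3. The causes were not tested.

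Calling at adjusted p below 0.05, whatever the fold, gave 5244 genes, 2610 higher and 2634 lower, and in the lists 14 signalling, 8 desensitization and 4 homing genes, while the test against 1.5-fold gave 1686 genes, 941 higher and 745 lower, and 1 homing gene. These counts follow from the cutoffs. Requiring 10 counts in every sample left 1 ligand called, since low genes were not tested. Homing genes called ran from 2 to 4 when single samples were left out.

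Shares of counts not divided by length were, in WT, 11.2% for Ccr2, 21.8% for Ccr4, 13.1% for Ccr6, 17.5% for Ccr8, 2.69% for Ccr9 and 6.65% for Cxcr5, and in KO 23.1% for Ccr2, 7.03% for Ccr4, 2.81% for Ccr6, 6.48% for Ccr8, 2.54% for Ccr9, 10.4% for Cxcr3, 12.2% for Cxcr4, 4.84% for Cxcr5 and 30.7% for Cxcr6. With merged exon lengths, chosen after seeing the data, WT shares were 12.1% for Ccr6 and 0.562% for Ccr9, and KO shares 7.98% for Ccr2, 5.32% for Ccr4, 2.84% for Ccr6, 0.579% for Ccr9, 15.8% for Cxcr4 and 3.40% for Cxcr5.

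Same-numbered samples did not deviate together (correlations 0.0377, 0.0404 and -0.0116), so no pairing by number was seen. With 3 samples per genotype and WT replicate 3 standing apart, these values cannot exclude a pairing. A replicate block gave 3190 called genes, against 3318 without it, and 3 receptors higher and 3 lower as before. With 3 samples per genotype, receptors with a wide spread such as Cxcr4 were the least certain.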
